A study of Mus musculus with 4 samples.

Results

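The genes described here encode the cell polarity complexes: Pard3 and Pard3b, Pard6b and Pard6g, Prkci and Prkcz, and Scrib, Dlg1 and Llgl1. They are 9 of 21627 protein-coding genes, and they were selected on binding already seen in these peak lists, so all counts and folds at them are a description without a test. A peak was assigned to a gene when its summit lay in the annotated span or within 50 kb of either end. This gave 37 of 21285 peaks in list 1 and 40 of 21218 in list 2, at 47 distinct sites.

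Chromatin immunoprecipitation with sequencing (ChIP-seq) was used to ask where TEAD1, through which the Hippo coactivators YAP and TAZ reach DNA, sits in cardiac fibroblasts of newborn mice. For cells overexpressing TEAD1 (OE-TEAD1) and for overexpression negative controls (OE-NC) a single ChIP library was sequenced with its input, 4 libraries in all and no replicates. The sources used here do not name the construct, the promoter that drives it, the mouse strain or the antibody. The labels tie neither deposited peak list to OE-TEAD1 or OE-NC, so they are named by number, and what overexpression did cannot be read from them. Peaks do not measure expression, and the labelled cell type was not checked against markers.

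Animal cells keep distinct faces with protein complexes that exclude one another from the membrane. In the Par complex the scaffold PAR3 and the adaptor PAR6 hold an atypical protein kinase C (aPKC) at one face, while the Scribble module of SCRIB, DLG and LGL marks the opposite one, and aPKC phosphorylates LGL to keep it away. In migrating fibroblasts the same proteins orient the cell and its leading edge, and the Hippo pathway takes input from them.

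Of the 9 genes, 7 had a summit in their window in list 1 and 8 in list 2, where 58.2% and 59.0% of all protein-coding genes had one. Both lists had summits at Pard3, Pard3b, Pard6b, Prkci, Prkcz, Scrib and Dlg1, list 2 alone had one at Llgl1, and Pard6g had none. Summits inside the span itself were found at Pard3, Pard3b and Prkci in list 1 and at those and Dlg1 in list 2, so 4 genes in each list were counted through their flanks alone. Per 100 kb of window the polarity genes held 1.3 summits in list 1 and 1.4 in list 2, against 1.1 and 1.1 over the windows of all protein-coding genes. These densities lay somewhat above the background, which was not matched for window length. By height 2 sites, in Pard3 and in Prkci, stood out.

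**Figure D1:**
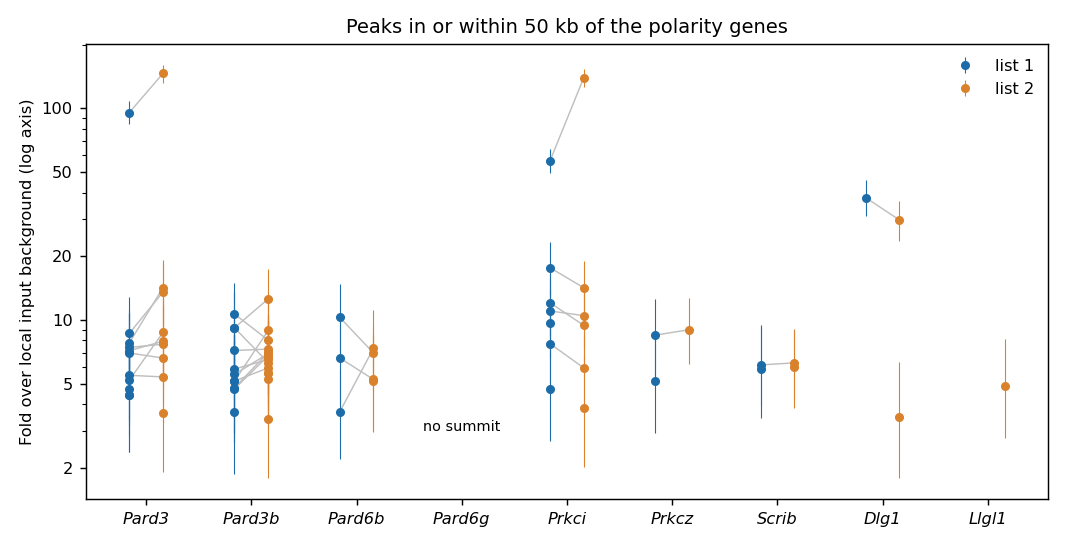
Fold over the local input background (log axis) at sites in or within 50 kb of the 9 genes. List 1 is left of list 2, each with its highest peak at the site. A further list 2 peak of 6.38-fold at a Pard3b site is not drawn. Bars are exact Poisson 95% intervals of the ChIP fragment count and grey lines join sites called in both lists. The Pard3 site at 95.5-fold in list 1 and 146.2-fold in list 2 and the Prkci site at 56.6-fold and 139.9-fold stand above all others, followed by the Dlg1 site.

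The 2 Par scaffold genes are long, and their sites were laid out differently. Pard3, which encodes the scaffold PAR3 that recruits PAR6 and aPKC to cell contacts, spans 548.9 kb of chromosome 8 (127063381 to 127612286, GRCm38). It had 11 summits in list 1 and 9 in list 2, at 12 sites, of which 8 were called in both lists. Only 1 of these sites was strong.

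The strong Pard3 peak lay inside the gene at chr8:127256910-127258254 in list 1 and chr8:127256995-127258214 in list 2. List 1 had 259 ChIP fragments at its summit over a local background of 1.72, which is 95.5-fold (95% interval 84.2 to 107.8). List 2 had 418 fragments over 1.87, which is 146.2-fold (132.5 to 160.9). The fold is the authors' value, the fragments plus 1 over the local background plus 1. Intervals of folds are exact Poisson intervals of the ChIP fragment count and cover counting error only. Both backgrounds were the lowest value in their list. By fold the peak ranked 3 in list 1 and 1 in list 2, and in both lists it had the highest fold in the window of any protein-coding gene. It lay 193.6 kb downstream of the first of 2 annotated starts of Pard3 and 41.9 kb upstream of the second.

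The next highest Pard3 peak was 11.1 times lower in list 1 and 10.3 times lower in list 2. It was a different site in each list. In list 1 it was chr8:127143699-127144042, 79.8 kb downstream of the first start, with 23 fragments and 8.63-fold, and the same site had 40 fragments and 13.5-fold in list 2. In list 2 it was the site 27.0 kb beyond the 3′ end, with 40 fragments and 14.2-fold, where list 1 had 35 fragments and 7.78-fold at chr8:127638193-127639826. The fragment counts at that site were close, and the backgrounds were 3.63 in list 1 and 1.89 in list 2. The other 9 sites of Pard3 had folds of 4.41 to 7.41 in list 1 and 3.63 to 8.72 in list 2. No summit of either list fell in the first 80.5 kb of the gene or in its last 139.9 kb, and no other protein-coding gene lay in its window.

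Pard3b encodes a PAR3-like scaffold. It spans 1003.6 kb of chromosome 1 (61638667 to 62642284), the longest span of the 9, and had 11 summits in list 1 and 15 in list 2 at 15 sites, 10 of them called in both. All of these sites lay in the last part of the gene or beyond it. The first 778.2 kb downstream of its start, 77.5% of the span, held no summit in either list, and 12 sites filled the following 222.4 kb. No peak was strong: folds ran from 3.67 to 10.7 in list 1 and from 3.39 to 12.6 in list 2, in a range of 9 to 32 fragments in list 1 and 10 to 35 in list 2.

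The highest Pard3b peak of list 1 was chr1:62550522-62551950, 10.7-fold (7.40 to 14.9, 32 fragments). List 2 had 2 separate peaks in that interval, of 8.03-fold (22 fragments) and 6.38-fold (19 fragments). The highest of list 2 was chr1:62444272-62444895, 12.6-fold (8.86 to 17.3, 35 fragments), and list 1 had 9.18-fold (6.01 to 13.5, 24 fragments) there. Its neighbour 1.58 kb away had 9.18-fold in list 1 and 6.28-fold in list 2, so the pair stood level in list 1 and apart in list 2, with intervals that overlapped. The second highest of list 2, chr1:62437257-62437859, had 26 fragments and 8.91-fold (5.94 to 12.9), and list 1 had 13 fragments and 5.14-fold (2.91 to 8.53) there. The site nearest to an end of the gene, 2.97 kb inside its 3′ end, was a list 1 peak of 9 fragments and 3.67-fold at chr1:62639305-62639689.

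**Figure D2:**
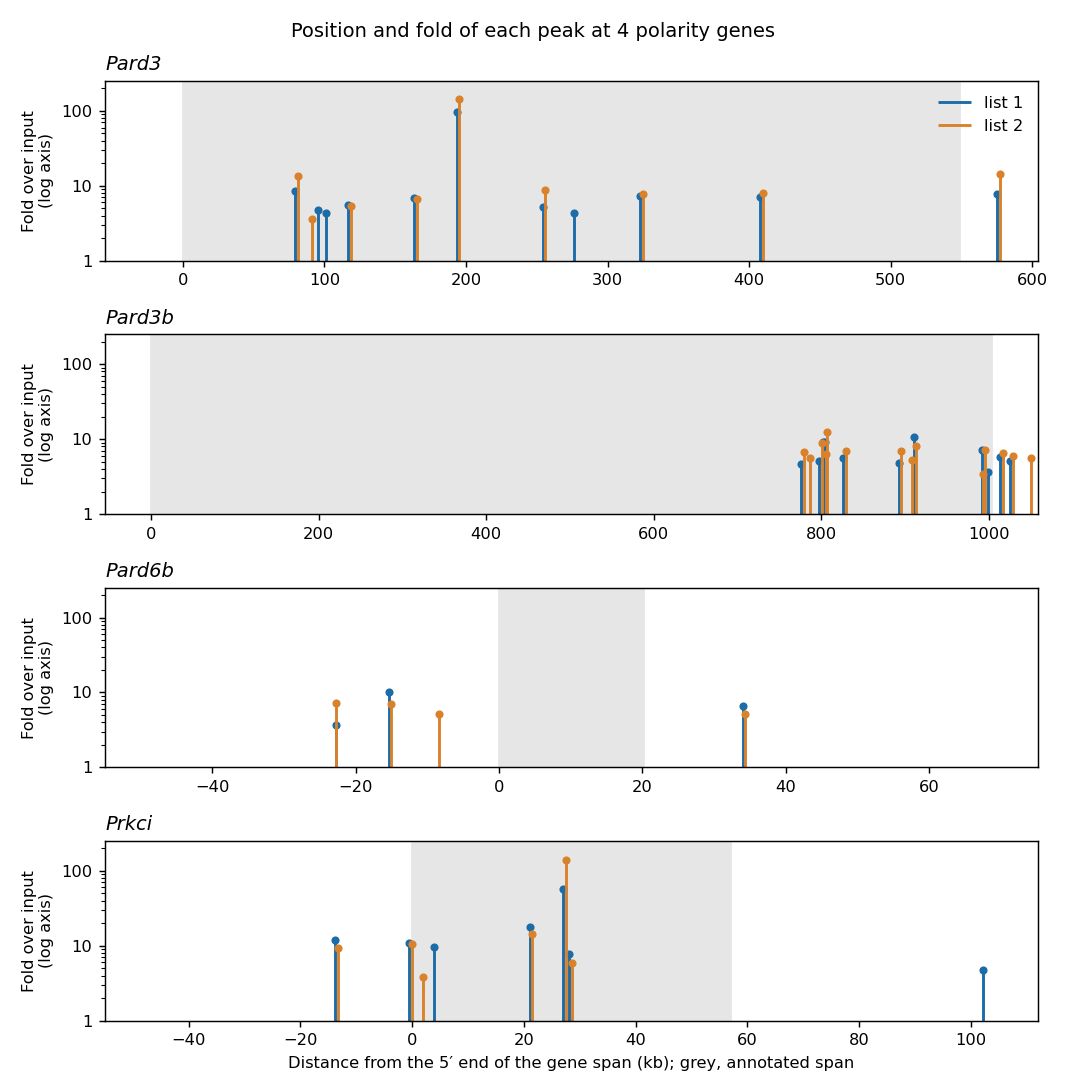
Fold over input (log axis) of the highest peak of each list at each site along Pard3, Pard3b, Pard6b and Prkci. The x axis is the distance from the 5′ end of the gene span in kb. Grey marks the annotated span, blue list 1 and orange list 2. The first 778.2 kb of Pard3b are empty, the Pard6b peaks all lie outside the gene, and the tallest peaks of Pard3 and Prkci lie inside the gene, away from its ends.

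The window around Pard3b ended short of a stronger site. Its farthest summit inside the 50 kb limit was a list 2 peak of 5.58-fold, 45.3 kb beyond the 3′ end. That peak was nearer to the neuropilin gene Nrp2, at 15.7 kb. The first one past the limit, at 70.9 kb and within Nrp2, was 35.7-fold in list 1 and 46.4-fold in list 2. For Dlg1 the first summit past the limit lay at 54.2 kb, with 6.52-fold and 10.9-fold.

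Counts rise with the length of a window, so each gene was also set beside genes whose windows were from 20% shorter to 25% longer than its own. Among 196 genes of like length to Pard3, 16.3% had at least its 11 summits in list 1 and 20.9% at least its 9 in list 2. Of 78 genes like Pard3b, 7.69% reached its count in list 1 and 2.56% in list 2. The median of both comparison groups was 2 summits in each list. Each comparison group includes the gene itself. In list 2 Pard3b was thus 1 of only 2 genes, among the 78, with at least 15 summits. The 2 scaffold genes stood in the upper part of their length class, and Pard3b was near its end in list 2.

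**Figure D3:**
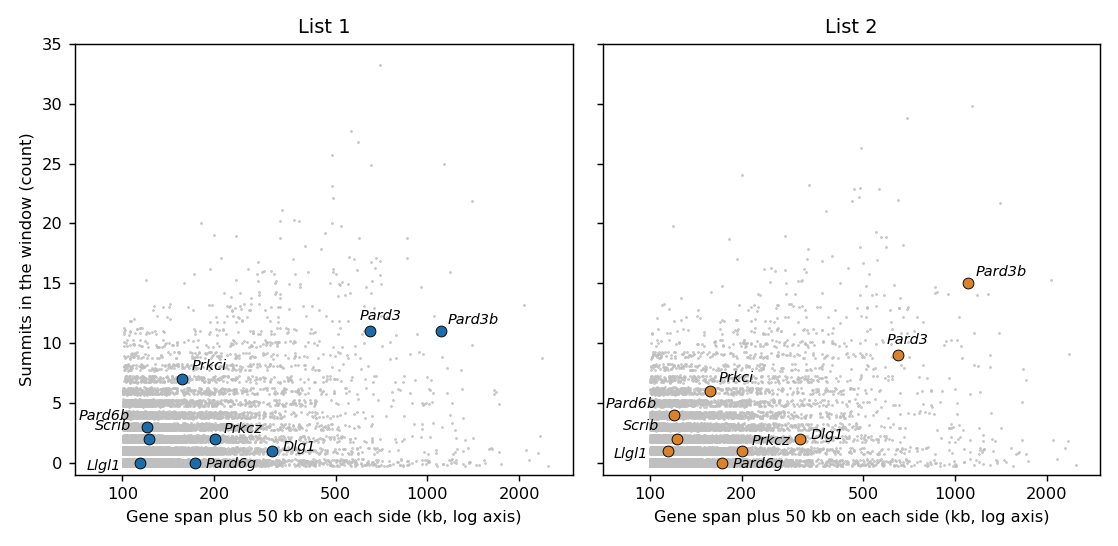
Number of summits in the window of each protein-coding gene (grey, spread vertically for display) against window length in kb (log axis), with the 9 polarity genes in colour, list 1 left and list 2 right. Pard3b with 11 and 15 summits, Pard3 with 11 and 9 and Prkci with 7 and 6 lie above most genes of their length, and Pard6g lies at 0.

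The PAR6 adaptors link CDC42 to aPKC, and neither gene had a summit inside its span. Pard6b (chromosome 2, 168081004 to 168101203) had 3 summits around it in list 1 and 4 in list 2. The site at chr2:168065278-168066032, 15.2 kb upstream of the start, had 27 fragments and 10.3-fold (6.90 to 14.8) in list 1 but 40 fragments and 6.98-fold (5.04 to 9.45) in list 2. Ripor3 was slightly nearer to this site, at 14.9 kb. The local background was 1.72 in list 1 and 4.87 in list 2, the highest at any polarity gene peak, so list 2 had more fragments and the lower fold.

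The highest Pard6b peak of list 2 was at another site. At chr2:168057736-168058614, 22.5 kb upstream and nearer to Ripor3, list 1 had 16 fragments and 3.67-fold over a background of 3.63, and list 2 had 20 fragments and 7.33-fold over 1.87. The summits of the 2 lists were 415 bp apart at this site. The remaining shared site, 14.1 kb beyond the 3′ end, had 17 fragments and 6.61-fold in list 1 and 14 fragments and 5.23-fold in list 2. The nearest site to the start was a list 2 peak of 14 fragments and 5.14-fold, 8.61 kb upstream. At least 3 summits were found for 18.8% of genes of like length in list 1, and at least 4 for 9.85% in list 2.

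Pard6g, on chromosome 18, had no summit in its 72.8 kb span or in the 50 kb on either side in either list. The nearest lay within Hsbp1l1, 115.0 kb away in list 1 (6.98-fold) and 114.9 kb in list 2 (10.2-fold).

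The atypical kinase genes differed from each other in the position of their peaks. Prkci, which encodes aPKC iota, the catalytic subunit of the Par complex, had 7 summits in list 1 and 6 in list 2 and was the only one of the 9 genes with a peak at its start. Prkcz, which encodes aPKC zeta, had 2 and 1, all beyond its 3′ end. Of 5917 genes of like length to Prkci, 4.07% had at least 7 summits in list 1 and 5.88% at least 6 in list 2, with a median of 1.

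The peak at the start of Prkci lay at chr3:30995017-30995675 in list 1 and chr3:30995231-30995663 in list 2. List 1 had 29 fragments and 11.0-fold (7.50 to 15.7) and list 2 had 35 fragments and 10.5-fold (7.39 to 14.5), with summits 333 and 317 bp upstream of the transcription start at position 30995771. The RefSeq promoter window of Prkci (GRCm38.p6, chr3:30995521-30995820, plus strand, 250 bases before to 50 after the start) is printed because it is the only promoter of these genes that a peak reached. The peaks covered its first 155 bases in list 1 and its first 143 in list 2. Capitals mark the match to the TEAD motif GGAATG, searched on both strands as GGAATG and CATTCC.

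Prkci promoter: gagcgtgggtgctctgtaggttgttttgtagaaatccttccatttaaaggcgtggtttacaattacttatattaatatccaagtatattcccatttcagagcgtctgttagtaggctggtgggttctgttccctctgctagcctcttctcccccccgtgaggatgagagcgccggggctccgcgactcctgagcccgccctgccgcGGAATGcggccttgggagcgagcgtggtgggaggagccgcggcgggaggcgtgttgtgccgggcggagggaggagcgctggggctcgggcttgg

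The match began at base 207 of the window and ended 39 bp before the transcription start. It lay outside both peaks, 52 bp past the end of the list 1 peak and 64 bp past that of list 2, and 289 and 273 bp from their summits. Promoter windows were found for 7 of the 9 genes, 13 windows in all, and Prkci had the only one with a peak and the only one with the motif. Among all 21044 promoter windows 13.5% held the motif, 1.69% overlapped a peak in list 1 and 1.53% in list 2. Of the 211 windows with a peak in both lists, 37.4% held the motif, counted anywhere in the window and not only under the peak. A match of these letters is a description and not a binding site.

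The strongest Prkci peak was inside the gene, 27.2 kb downstream of the start, at chr3:31022317-31023339 in list 1 and chr3:31022459-31023340 in list 2. List 1 had 241 fragments over a background of 3.27, which is 56.6-fold (49.7 to 64.2), and list 2 had 400 fragments over 1.87, which is 139.9-fold (126.6 to 154.3). The summits were 2 bp apart. By fold the peak ranked 47 in list 1 and 2 in list 2. The ratio of list 1 to list 2 was 0.405 (0.343 to 0.475) in fold and 0.603 in fragments, and the local background was higher in list 1. Depth per library is not in the lists, and its part in the ratio was not tested.

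The other Prkci sites stood around this peak. A peak of 20 fragments and 7.71-fold in list 1 and 29 fragments and 5.93-fold in list 2 lay 1.11 kb further on, over backgrounds of 1.72 and 4.06. The second strongest, chr3:31016653-31017322, had 47 fragments and 17.6-fold (13.0 to 23.3) in list 1 and 42 fragments and 14.2-fold (10.3 to 19.1) in list 2. Upstream of the gene, 13.5 kb from its start and nearer to Phc3, list 1 had 12.0-fold and list 2 9.42-fold. The 5 sites called in both lists thus spread over 41.8 kb from the upstream flank into the gene.

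Prkci also had 3 sites in a single list. The peak at chr3:30999410-31000084, 4.07 kb downstream of the start, had 29 fragments and 9.70-fold in list 1 and no peak in list 2, which made it the highest of all polarity gene peaks found in 1 list. A list 2 peak of 3.84-fold lay 1.73 kb downstream of the start. A list 1 peak of 4.72-fold lay 45.4 kb beyond the 3′ end, inside Skil.

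Prkcz, on the minus strand of chromosome 4 (155260118 to 155361428), had 1 site in both lists, 21.2 kb beyond its 3′ end at chr4:155238644-155239090. List 1 had 23 fragments and 8.47-fold (5.50 to 12.5), and list 2 had 31 fragments and 8.99-fold (6.20 to 12.6). The site was nearer to Faap20, at 8.0 kb. A further list 1 peak lay 24.7 kb beyond the 3′ end (13 fragments, 5.14-fold) and was also nearer to Faap20, at 11.5 kb. Such counts were common, since 54.0% of genes of like length had at least 2 summits in list 1 and 74.6% at least 1 in list 2.

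In the Scribble module the only strong peak was upstream of Dlg1, which encodes a membrane-associated guanylate kinase scaffold. It lay at chr16:31638072-31638933, 24.9 kb before the first start of Dlg1 and inside the neighbouring gene Gm536. List 1 had 102 fragments and 37.8-fold (30.9 to 45.8), and list 2 had 84 fragments and 29.7-fold (23.7 to 36.6). It ranked 226 by fold in list 1 and 791 in list 2. Inside the 209.9 kb of Dlg1 there was a single peak, in list 2, with 9 fragments and 3.49-fold, 13.6 kb downstream of a start.

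Scrib, which encodes a leucine-rich repeat and PDZ domain scaffold, and Llgl1, which encodes the mammalian lethal giant larvae protein, had weak peaks in their flanks. At Scrib the site called in both lists, chr15:76083500-76083971, was 6.12-fold (21 fragments) in list 1 and 6.27-fold (26 fragments) in list 2. It lay 13.9 kb outside the gene and 1.18 kb from Puf60. A list 1 peak of 5.88-fold and a list 2 peak of 5.99-fold on the other side both lay inside Iqank1. Llgl1 had a single list 2 peak of 13 fragments and 4.88-fold, 20.3 kb beyond its 3′ end at chr11:60734362-60734629 and 1.54 kb from Mief2. Among genes of like length, 32.8% had at least the 2 summits of Scrib in list 1 and 32.3% in list 2, and 75.1% and 61.3% had at least the 1 and 2 of Dlg1. The Scrib window holds 7 other protein-coding genes and the Llgl1 window 3, and nothing in the lists links a flanking peak to one gene.

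Across the 9 genes 29 sites were common to the lists, 8 were found by list 1 only and 10 by list 2 only. In list 1 29 of the 37 peaks, 78.4%, had a partner in list 2 (95% Wilson bounds 62.8 and 88.6). In list 2 30 of the 40, 75.0%, had one in list 1 (bounds 59.8 and 85.8). Over whole lists the shares were 70.9% and 71.4%, within both intervals. The bounds treat peaks as independent, though Pard3 held 11 and 9 of them in lists 1 and 2 and Pard3b 11 and 15, so they are no test. The sites of a single list were weak: 17 of 18 were below 6-fold, the exception being the Prkci peak. Where 1 peak of each list overlapped, the summits were a median of 20 bp apart, and 25 of 28 lay within 50 bp.

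The folds of shared sites were close between the lists apart from a few. Over 29 pairs the median log2 ratio of list 1 to list 2 was -0.08 (SD 0.51 over sites), against -0.15 over all 15015 pairs in the lists. The fold was higher in list 1 at 11 pairs and higher in list 2 at 18. No polarity gene pair was at least 2 times as high in list 1, where 1.90% of all pairs were, and 1 was at least 2 times as high in list 2, where 5.81% were. That pair was the strongest Prkci peak, and it was also the only 1 of the 29 outside the middle 90% of all pairs. The Pard6b site 22.5 kb upstream came next, at a ratio of 0.501 (0.240 to 1.01). At the strongest Pard3 peak the ratio was 0.653 (0.556 to 0.763), and at the Dlg1 peak it was 1.28 (0.948 to 1.73).

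**Figure D4:**
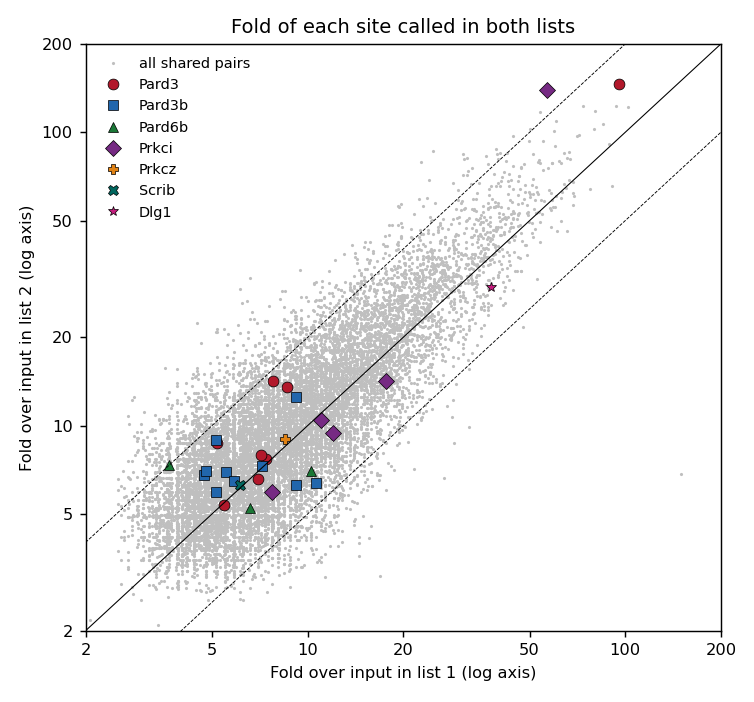
Fold over input of each site called in both lists, list 1 on the x axis and list 2 on the y axis (both log), with all 15015 pairs in grey and the polarity gene pairs in colour; the solid line marks equal folds and the dashed lines a 2-fold difference. The Prkci pair at 56.6 and 139.9 lies above the upper dashed line, and the Pard3 pair at 95.5 and 146.2 lies between the lines.

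Most peaks of the polarity genes were of ordinary height. Their median fold was 6.98 in list 1 and 6.85 in list 2, against 6.24 and 6.83 over whole lists. At least 10-fold was measured for 8 of 37 peaks in list 1 and 8 of 40 in list 2, and for 22.9% and 28.1% of all peaks. The median peak rested on 20 fragments in list 1 and 21.5 in list 2, and the lowest on 9 in each, so single weak peaks have wide intervals.

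Another 33 polarity genes, among them further DLG, LIN7, Crumbs, planar polarity and Par kinase genes with the small GTPases and their exchange factors, were counted in the same way. Summits were found at 23 of them in list 1 (69.7%) and 24 in list 2 (72.7%), beside 58.2% and 59.0% of all protein-coding genes, at 22 in both lists and at 8 in neither. These shares were not matched for window length. A summit inside the span was found at 13 of the 33 in list 1 and 15 in list 2. Their median highest fold was 8.08 in list 1 and 8.79 in list 2, against 8.81 and 9.52 over all protein-coding genes with a summit. Arhgef7, the exchange factor beta-PIX, led both lists with 24.2-fold and 30.4-fold. Lin7c, which encodes an adaptor of the Crumbs and cadherin complexes, ranked 2 in list 1 with 16.5-fold and 3 in list 2 with 19.9-fold. Both of these summits lay 6.5 kb outside its span. Celsr3, a planar polarity cadherin, had 14.7-fold in list 1 at a summit within Ip6k2, and Dlg5, Rac1 and Mark3 tied after it at 13.2-fold. The Dlg5 summit lay inside its span, that of Rac1 29.9 kb outside and within Daglb, and that of Mark3 9.05 kb outside. In list 2 Cdc42, the GTPase that activates the PAR6 and aPKC pair, ranked 2 with 26.9-fold (76 fragments) at a summit 43.5 kb outside its span. That summit lay in no protein-coding span, and the gene nearest to it is not given here, so it may belong to a neighbour. In list 1 the Cdc42 window held a single summit, inside the span, of 2.81-fold (12 fragments), the lowest of the 23 genes. Lrrc1, a SCRIB relative, ranked 4 in list 2 with 15.2-fold 0.281 kb from an end of its span.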

How the data were processed

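Per the submitters' processing notes, Trimmomatic 0.33 trimmed the reads, Bowtie 1.1.2 aligned them and MACS2 called peaks. The sources used here do not give MACS2 settings or say whether duplicates were removed. The notes name mm39, but several chromosomes of that build end before the last peaks listed on them, so coordinates were read as GRCm38 and are given as deposited, counted from 1.

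The deposited lists hold 1 row per peak, each called against input. The authors' score is 10 times the −log10 q, truncated. The deposited fold is the ratio of ChIP pileup at the summit to local input background, with 1 added to both, and the authors' −log10 p is a Poisson test of that pileup. Solving fold and p gave ChIP fragments and background, and 99.99% of the fragment numbers of each list were whole (tolerance 0.02). The calculation returned set fragment numbers when fold and p were made from them with the same formula, which checks the arithmetic and not the formula. Library depth is not in the lists, which held at least 8 fragments at each summit.

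Peaks were shared at an overlap of 1 bp, and folds were compared between best reciprocal overlaps without a test. Intervals are exact Poisson (fold), exact binomial on the split of fragments between lists (ratio of folds) or Wilson (share) at 95%. Gene spans and promoter windows are RefSeq GRCm38.p6. Exons and introns, and motifs at summits, were not analysed here. The genes and lists were chosen with earlier results of these data known. All 9 genes are described, each with its 2 highest sites in either list and the site nearest an end, and the 33 other genes by counts and the 4 highest per list. Alternatives changed the flank, the q threshold, the number of peaks, the assignment to the nearest gene and the overlap. Python 3.11.15, SciPy 1.17.1 and pandas 2.3.3 were used.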

Additional observations from a re-analysis of the deposited data

How the results depend on the processing

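The counts rested on the flanks and on weak peaks. With a flank of 10 kb list 1 had 24 summits at 3 of the polarity genes and list 2 had summits at 5 of them, and with no flank 23 summits at 3 genes in list 1 and 25 at 4 in list 2. A −log10 q of at least 10 left 20 summits in list 1 and 25 in list 2. With the 5000 strongest peaks of each list 7 summits at 4 genes remained in list 1, and 7 at 4 in list 2. When a summit counted only for its nearest protein-coding gene, 4 genes had one in list 1 and 5 in list 2. The other 26 alternative values moved by less than 1.5 times, for counts, or less than their interval or spread. The shared percentage ran over 73.0 to 86.7 in list 1 and 67.5 to 83.3 in list 2, and the median log2 ratio of list 1 to list 2 over -0.12 to -0.04. No paired analysis was possible because each group had 1 library and the results come from no test. With 9 fragments at the weakest summits and no replicates, absence of a peak in a list does not show absence of binding.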
